A study of Mus musculus with 8 samples.

Results

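The enzymes that copy, set and remove cytosine methylation in DNA were examined in 3 blood-forming populations of the mouse bone marrow. The 10 genes were taken from a list of known roles: Dnmt1, Uhrf1 and Hells for the maintenance of methylation, Uhrf2 as the paralogue of Uhrf1, Dnmt3a, Dnmt3b and Dnmt3l for methylation of new sites, and Tet1, Tet2 and Tet3 for its oxidation. Each gene had 1 probe set annotated with its symbol alone, and all 10 passed the filter on dim genes, among 17576 tested genes of 22180 with a named probe set. Values are log2 signals from RMA, a method that corrects background, normalizes arrays and summarises probes, and ST-HSC over LT-HSC, for example, stands for the log2 mean of the first population less that of the second.

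RNA came from C57/Bl6 mice whose age is given as 8 weeks. LT-HSC, the long-term blood stem cells, were represented by 2 arrays (replicates 1 and 3) and sorted as CD48-CD150+CD34-, short-term stem cells (ST-HSC, 3 arrays) as CD48-CD150+CD34+ and multipotent progenitors (MPP, 3 arrays) as CD48+CD150-CD34+. All 3 gates also required absence of lineage markers and presence of Sca1 and Kit. The sample descriptions give no treatment, while a protocol shared by all samples names DMSO for 2 hours, 1 year in primary recipients and 3 months in secondary recipients, so the history of the cells is not settled by the labels. No source used here says whether cells of several animals were pooled or whether each array stands for a different mouse, so p-values reflect nothing beyond how far these samples lie apart, and that scatter may be technical.

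DNA methylation is copied after each round of replication. UHRF1 binds the half-methylated daughter DNA and brings in the methyltransferase DNMT1, and the helicase HELLS opens nucleosomal DNA for it. DNMT3A and DNMT3B methylate sites that carried no methyl group, DNMT3L is a cofactor without catalytic activity of its own, and TET1, TET2 and TET3 oxidise methylcytosine as a step towards its removal. In blood formation, loss of DNMT3A or TET2 is known to expand the stem cell pool, and DNMT1 is known to be needed for stem cell maintenance.

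The maintenance genes were the members whose ST-HSC arrays all lay above the LT-HSC arrays, and their upstream DNA is shown for that reason. RefSeq windows (build GRCm38.p6) were found for all 10 genes. The 250 bases before the start are printed 5′ to 3′ on the gene's strand, with CpG dinucleotides, the letters that these enzymes methylate, in capitals. They lie at chr19:38930740-38930989 on the plus strand for Hells, at chr17:56303087-56303336 on the plus strand for the first of 2 listed starts of Uhrf1, and at chr9:20952980-20953229 on the minus strand for the second of 3 listed starts of Dnmt1.
Hells: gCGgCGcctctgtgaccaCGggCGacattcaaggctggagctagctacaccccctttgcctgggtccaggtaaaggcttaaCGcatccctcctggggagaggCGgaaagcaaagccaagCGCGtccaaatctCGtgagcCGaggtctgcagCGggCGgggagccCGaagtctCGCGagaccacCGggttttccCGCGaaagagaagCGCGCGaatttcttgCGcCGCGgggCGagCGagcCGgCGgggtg
Uhrf1: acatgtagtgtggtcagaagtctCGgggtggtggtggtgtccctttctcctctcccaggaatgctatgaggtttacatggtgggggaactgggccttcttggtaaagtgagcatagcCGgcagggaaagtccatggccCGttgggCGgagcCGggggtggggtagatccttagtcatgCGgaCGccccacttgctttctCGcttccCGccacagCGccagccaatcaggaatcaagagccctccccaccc
Dnmt1: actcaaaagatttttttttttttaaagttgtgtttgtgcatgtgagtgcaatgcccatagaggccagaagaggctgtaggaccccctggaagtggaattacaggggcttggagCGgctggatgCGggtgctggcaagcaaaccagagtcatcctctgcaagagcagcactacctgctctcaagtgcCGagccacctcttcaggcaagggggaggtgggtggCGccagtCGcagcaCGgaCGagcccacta
The 3 windows held 28, 10 and 7 CpG. Among 32851 RefSeq windows of this length the median was 6, and 7.61%, 37.8% and 46.3% held as many as Hells, Uhrf1 and Dnmt1. At their other listed starts Uhrf1 had 30 CpG, and Dnmt1 had 2 at the first and 26 at the third. The members outside the maintenance group ran from 3 to 5 CpG at the 3 starts of Dnmt3l to 51 at Tet2, a count that 0.067% of windows reached. Letters bound by E2F factors, regulators of genes used in S phase, were searched as TTTCCCGC and TTTGGCGC on both strands. TTTCCCGC occurred in the Hells window, with its first base 62 bases before the start, and neither run of letters occurred upstream of any other listed start of a member, against 1.3% of all windows with either. TTTGGCGC was also found 33 bases past the third Dnmt1 start.

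Uhrf1 and Hells were higher in ST-HSC than in LT-HSC, by 2.73-fold and 2.23-fold, and Dnmt1 showed the same order of means without passing the test. MPP lay between for these 3 genes. The genes for methylation of new sites and for oxidation showed no called difference, and over all arrays their means, apart from that of Dnmt3l, were highest in MPP.

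Among the maintenance genes, Uhrf1 read 6.94 and 7.29 in LT-HSC, 8.54, 8.58 and 8.58 in ST-HSC and 8.30, 7.58 and 8.06 in MPP. All ST-HSC arrays lay above all others, the LT-HSC arrays were the lowest, and no population overlapped another. The ST-HSC over LT-HSC log2 difference was 1.45 (SE 0.22, limma adjusted p = 0.0117), which ranked 77th from the top of 17576 genes. MPP over LT-HSC was 0.87 (SE 0.22, limma adjusted p = 0.207) and MPP over ST-HSC -0.58 (SE 0.20, limma adjusted p = 0.431). Neither of these passed, so the place of MPP between the stem cell populations is an order of means.

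Hells, whose product belongs to the SNF2 family of DNA-dependent ATPases, read 6.67 and 6.91 in LT-HSC, 7.95, 8.10 and 7.81 in ST-HSC and 7.55, 6.94 and 7.17 in MPP. Again the 3 populations did not overlap, with MPP replicate 2 only just above LT-HSC replicate 3. The log2 difference was 1.16 for ST-HSC over LT-HSC (SE 0.21, limma adjusted p = 0.0263). MPP exceeded LT-HSC by 0.43 (SE 0.21, limma adjusted p = 0.501), and MPP over ST-HSC gave -0.73 (SE 0.19, limma adjusted p = 0.199). With arrays weighted by their estimated quality the last difference was -0.76 and passed (limma adjusted p = 0.0133; over all alternatives 0.0133 to 0.669).

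Dnmt1, the maintenance methyltransferase, read 8.94 and 8.96 in LT-HSC, 9.68, 9.62 and 9.67 in ST-HSC and 9.64, 9.17 and 9.40 in MPP. The LT-HSC arrays were the lowest, and MPP replicate 1 overlapped the ST-HSC arrays. Its difference of 0.70 for ST-HSC over LT-HSC (SE 0.18, 95% interval 0.31 to 1.1) did not pass over all genes (limma adjusted p = 0.132; over all alternatives 0.0572 to 0.487). MPP over LT-HSC was 0.45 (limma adjusted p = 0.428) and MPP over ST-HSC -0.25 (limma adjusted p = 0.936).

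**Figure D1:**
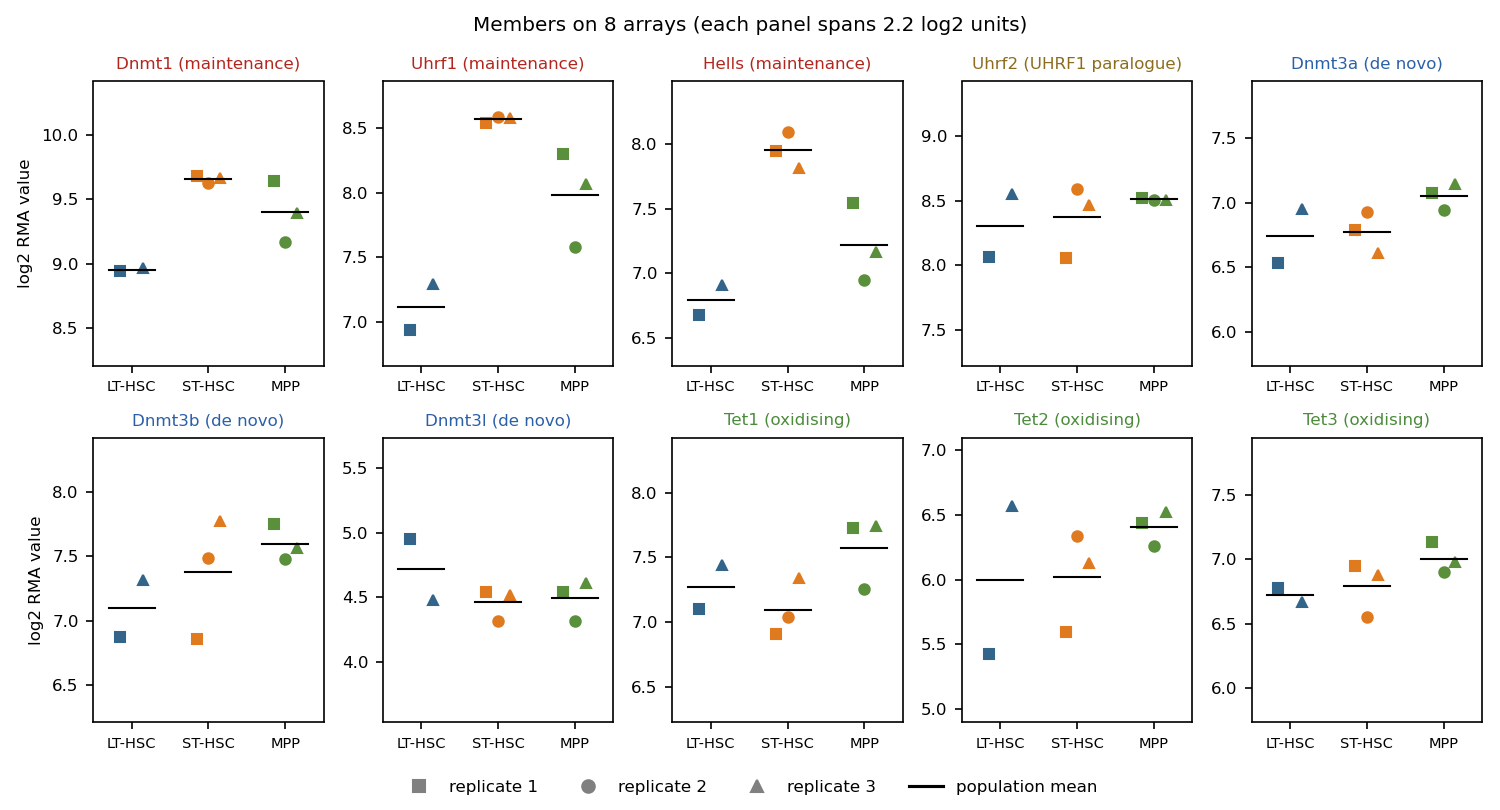
Log2 RMA value (y axis, each panel with its own centre and the same span) of the 10 genes on each array, by population (x axis); symbols mark replicate numbers and black lines population means. For Uhrf1 the ST-HSC arrays at 8.54 to 8.58 lie above all MPP and LT-HSC arrays, whereas the Tet2 arrays of LT-HSC spread from 5.43 to 6.57.

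Of the 10 members, 2 were higher in ST-HSC when LT-HSC was the reference, where 0.848% of all tested genes were, and 0 were lower (0.0853% of genes; 0.933% in either direction). In the F test over the 3 populations Uhrf1 (limma adjusted p = 0.0269) and Hells (limma adjusted p = 0.0496) passed, where 0.905% of genes did. All 3 maintenance genes, and none of the other 7, had ST-HSC arrays wholly above the LT-HSC arrays, which held for 13.8% of genes, and 3 members had an unadjusted limma p under 0.05 (11.1% of genes). Both calls rested on few arrays. Without LT-HSC replicate 1 the difference of Uhrf1 was 1.27 (limma adjusted p = 0.144) and that of Hells 1.04 (limma adjusted p = 0.228), and without ST-HSC replicate 3 they were 1.45 and 1.23 (limma adjusted p = 0.0599 and 0.085). Hells was also not called without ST-HSC replicate 1 (limma adjusted p = 0.0666), ST-HSC replicate 2 (0.103) or MPP replicate 3 (0.0693). Its call also ended with median centring of the arrays (limma adjusted p = 0.0537), array weights (0.136), a fit of the 2 populations alone (0.0516), and each array's interquartile range as a covariate (0.0583), and neither gene was called without both arrays that stood apart, LT-HSC replicate 1 and ST-HSC replicate 1 (limma adjusted p = 0.199 for Uhrf1 and 0.28 for Hells). Over all alternatives its log2 difference stayed between 1.03 and 1.28 and that of Uhrf1 between 1.26 and 1.63.

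In MPP against LT-HSC 0 of 10 members were called by limma, 2 of them at an unadjusted p under 0.05 (Uhrf1 and Dnmt1), where 0.125% of genes were called and 10.6% had such a p. In MPP against ST-HSC again 0 were called by limma and 3 had an unadjusted p under 0.05 (Uhrf1, Hells and Tet1), where 0.193% were called and 6.89% had such a p. Groups did not overlap for 5 members in MPP against LT-HSC, all higher in MPP (Dnmt1, Uhrf1, Hells, Dnmt3b and Tet3; 14.1% of genes). In MPP against ST-HSC they did not overlap for Uhrf1 and Hells, lower in MPP (6.43% of genes), and for Dnmt3a, higher in MPP (7.75% of genes).

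**Figure D2:**
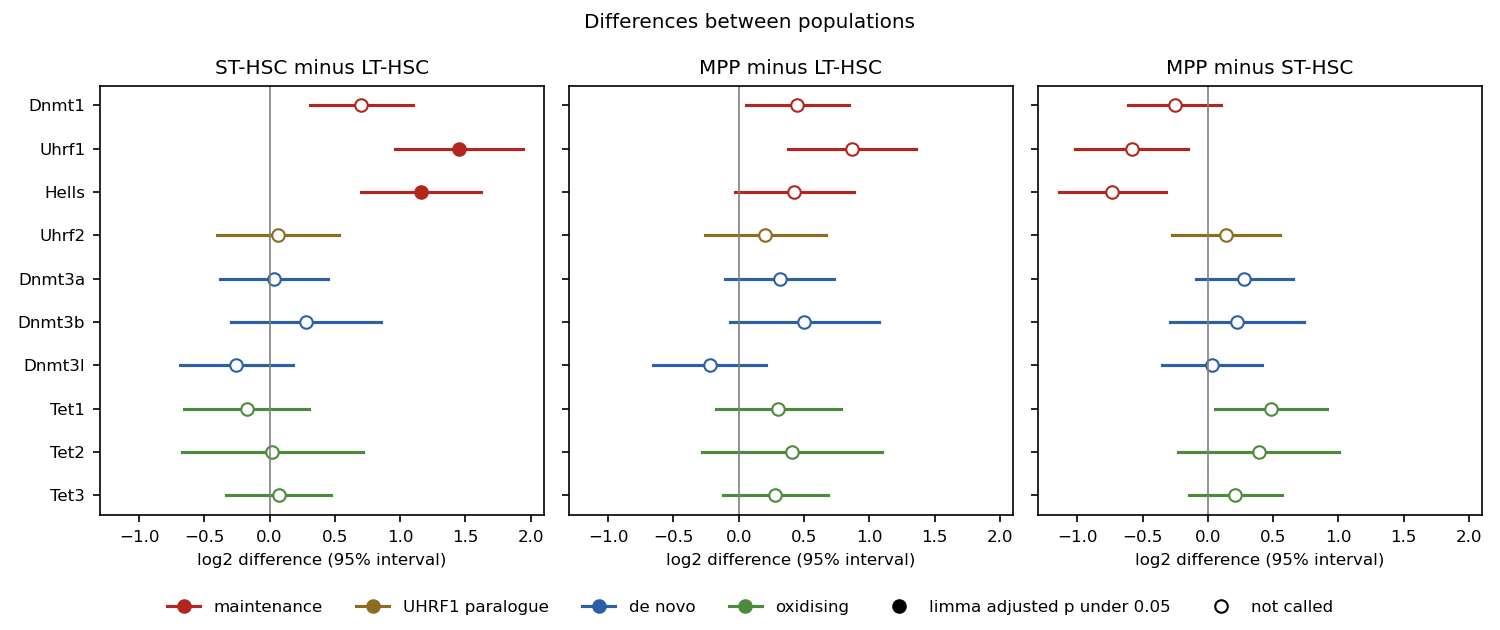
Log2 difference between populations (x axis) for each gene (y axis), with its 95% interval from limma and colours by role; filled points passed a limma adjusted p of 0.05. Only Uhrf1 (1.45) and Hells (1.16) are filled, both in ST-HSC over LT-HSC.

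Uhrf2, which encodes a protein of the same domain build as UHRF1 but is not known to replace it in maintenance, did not share the pattern of Uhrf1. It read 8.06 and 8.55 in LT-HSC, 8.06, 8.59 and 8.47 in ST-HSC and 8.52, 8.50 and 8.50 in MPP. The low values were those of replicate 1 in both stem cell populations, and all 3 populations overlapped. ST-HSC over LT-HSC was 0.06 (95% interval -0.40 to 0.53, limma adjusted p = 0.938), which changed sign to -0.12 with quantile normalization, and MPP over LT-HSC was 0.20 (limma adjusted p = 0.708).

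Among the genes for new methylation, Dnmt3a read 6.53 and 6.95 in LT-HSC, 6.79, 6.93 and 6.61 in ST-HSC and 7.08, 6.95 and 7.14 in MPP. MPP arrays lay above all ST-HSC arrays but 1 LT-HSC array reached the lowest of them. The MPP over ST-HSC difference was 0.28 (SE 0.17, 95% interval -0.09 to 0.65, limma adjusted p = 0.921), and ST-HSC over LT-HSC was 0.03 (95% interval -0.38 to 0.45, limma adjusted p = 0.967), or -0.05 with quantile normalization.

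Dnmt3b read 6.88 and 7.31 in LT-HSC, 6.86, 7.49 and 7.77 in ST-HSC and 7.74, 7.48 and 7.57 in MPP. ST-HSC held both the lowest and the highest array of the 8. MPP over LT-HSC was 0.50 (SE 0.26, 95% interval -0.07 to 1.07, limma adjusted p = 0.514), ST-HSC over LT-HSC 0.28 (limma adjusted p = 0.723) and MPP over ST-HSC 0.22 (limma adjusted p = 0.999). Without LT-HSC replicate 1 the values against LT-HSC were 0.28 for MPP and 0.06 for ST-HSC. Without ST-HSC replicate 1 ST-HSC over LT-HSC was 0.54 and MPP over ST-HSC -0.03, and without ST-HSC replicate 3 these were 0.08 and 0.42. Without LT-HSC replicate 3 ST-HSC over LT-HSC was 0.50.

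Dnmt3l, known for its role in germ cells, was dim, at 4.95 and 4.48 in LT-HSC, 4.54, 4.32 and 4.52 in ST-HSC and 4.54, 4.32 and 4.61 in MPP. Each value lay below the median of its own array (4.95 to 5.22), and whether such a signal exceeds background cannot be read from these values. LT-HSC replicate 1 was the highest array, and LT-HSC replicate 3 lay within the range of the other populations. None of its differences passed, at -0.25, -0.22 and 0.03 for ST-HSC over LT-HSC, MPP over LT-HSC and MPP over ST-HSC (limma adjusted p = 0.663, 0.656 and 0.999).

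Of the oxidising enzymes, Tet1 read 7.10 and 7.44 in LT-HSC, 6.91, 7.04 and 7.34 in ST-HSC and 7.72, 7.26 and 7.75 in MPP. MPP replicates 1 and 3 were the highest of all arrays, while MPP replicate 2 lay within the stem cell range. MPP over ST-HSC was 0.48 (SE 0.19, 95% interval 0.05 to 0.91), the highest of the 10 members in that comparison, and did not pass (limma adjusted p = 0.62; over all alternatives 0.0786 to 1).

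Tet2, a gene often mutated in blood cancers, read 5.43 and 6.57 in LT-HSC, 5.59, 6.34 and 6.13 in ST-HSC and 6.44, 6.26 and 6.52 in MPP. The highest and the lowest of the 8 arrays were both LT-HSC, with an SD of 0.81 (n = 2) in that population. MPP over LT-HSC was 0.41 (SE 0.31, limma adjusted p = 0.621), or -0.16 without LT-HSC replicate 1, and ST-HSC over LT-HSC was 0.02 (SE 0.31, limma adjusted p = 0.988), or -0.55 without it.

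Tet3 read 6.78 and 6.67 in LT-HSC, 6.94, 6.55 and 6.88 in ST-HSC and 7.13, 6.90 and 6.98 in MPP. Its MPP arrays exceeded both LT-HSC arrays and overlapped 1 ST-HSC array. The MPP over LT-HSC difference was 0.28 (SE 0.18, 95% interval -0.12 to 0.68, limma adjusted p = 0.572), and the other differences were 0.07 and 0.21 (limma adjusted p = 0.92 and 0.994).

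Set side by side, the maintenance genes had ST-HSC over LT-HSC differences of 0.70 to 1.45, the genes for new methylation -0.25 to 0.28 and the oxidising enzymes -0.18 to 0.07, where the median over all genes was 0.02. In MPP over ST-HSC the sign turned for the maintenance genes, Tet1 and Dnmt3l and stayed the same for Uhrf2, Dnmt3a, Dnmt3b, Tet2 and Tet3. The maintenance genes had differences of -0.73 to -0.25, the genes for new methylation 0.03 to 0.28 and the oxidising enzymes 0.21 to 0.48 (median over all genes 0.01), and the 2 comparisons share the ST-HSC arrays. Differences above 0 were found for 8, 9 and 7 of the 10 members in ST-HSC over LT-HSC, MPP over LT-HSC and MPP over ST-HSC, against 52%, 57.2% and 51.7% of genes. The mean was highest in ST-HSC for all 3 maintenance genes, against 30% of tested genes, and highest in MPP for 6 of the other 7, against 35.2%. Dnmt3l was the member with its highest mean in LT-HSC, as were 34.8% of genes. The count in MPP depended on the arrays that stood apart: it was 5 of 7 when LT-HSC replicate 1 was left out and 4 of 7 when ST-HSC replicate 1 was. With neither of them it was 4 of 7, namely Dnmt3a, Dnmt3l, Tet1 and Tet3. ST-HSC was highest for all 3 maintenance genes in each of these settings. The difference between the roles was not tested.

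**Figure D3:**
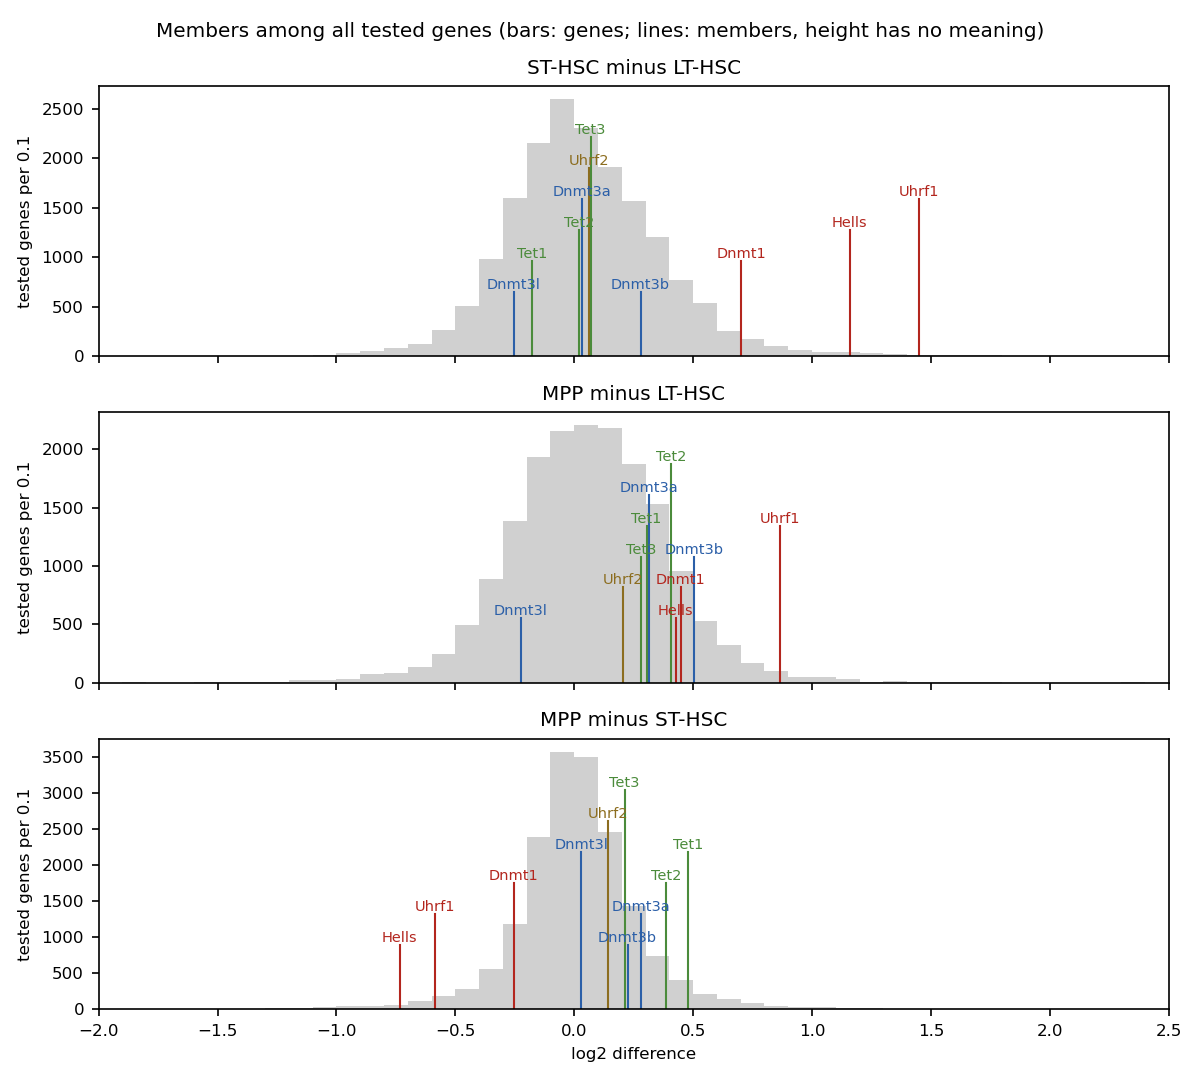
Number of tested genes (y axis, grey bars) by log2 difference in bins of 0.1 (x axis, drawn from -2 to 2.5) for each comparison, with coloured lines at the 10 genes. Uhrf1, Hells and Dnmt1 stand at 1.45, 1.16 and 0.70 on the right of ST-HSC over LT-HSC and on the left in MPP over ST-HSC, where Tet1 stands at 0.48.

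Taken per array and relative to each gene's mean over all arrays, the maintenance genes averaged -0.73 and -0.53 in LT-HSC, 0.47, 0.51 and 0.43 in ST-HSC and 0.24, -0.35 and -0.04 in MPP. Within MPP replicate 1 was high and replicate 2 low for each of Uhrf1, Hells and Dnmt1. The S phase and proliferation list of 21 tested genes ran alike, at -0.67 and -0.50, then 0.59, 0.34 and 0.51, then 0.26, -0.45 and -0.08. The oxidising enzymes averaged -0.34 and 0.12 in LT-HSC, -0.30, -0.14 and 0.00 in ST-HSC and 0.32, 0.03 and 0.30 in MPP. In bulk RNA of this kind fewer cells that express a gene and less of its RNA per cell cannot be told apart.

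**Figure D4:**
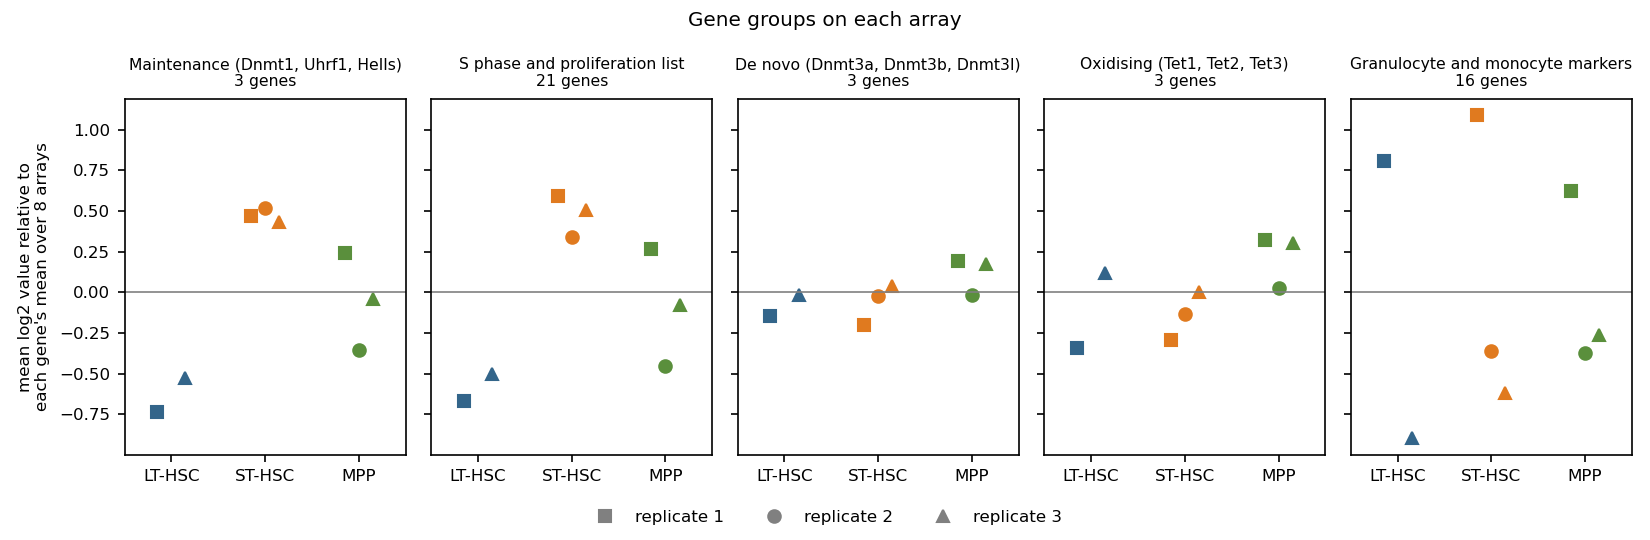
Mean log2 value relative to each gene's own mean over the 8 arrays (y axis) for 5 gene groups, by population (x axis), 1 point per array with the symbol giving the replicate number. The maintenance genes and the S phase list share the order of the arrays' populations (ST-HSC at 0.43 to 0.51 and 0.34 to 0.59), and the granulocyte and monocyte markers are highest in replicate 1 of every population (0.81, 1.09 and 0.62).

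Of those 21 S phase genes 9 were called higher in ST-HSC, with LT-HSC as the reference, and 0 lower, where 0.848% and 0.0853% of all tested genes were, and 20 had an unadjusted p under 0.05 (11.1% of genes). The median difference was 1.01 and all differences were above 0, as were 52% of those of all tested genes. The topoisomerase Top2a (1.63, limma adjusted p = 0.0117), the proliferation marker Mki67 (1.51, limma adjusted p = 0.00717), and the replication factor Gins1 (1.29, limma adjusted p = 0.012) were among them. So were the replication factor Cdc45 (1.12, limma adjusted p = 0.0355), the cyclin Ccna2 (1.42, limma adjusted p = 0.0365) and thymidine kinase Tk1 (0.99, limma adjusted p = 0.0434). Mcm6 and Mcm4, subunits of the replicative helicase and the brightest uncalled genes of the list, differed by 0.75 and 0.87 (limma adjusted p = 0.188 and 0.0827). In MPP over LT-HSC 0 of 21 were called by limma and 13 had an unadjusted p under 0.05, where 0.125% and 10.6% of genes did, with a median difference of 0.51. In MPP over ST-HSC 0 were called by limma and 15 had an unadjusted p under 0.05 (0.193% and 6.89% of genes), and all 21 differences were negative, with a median of -0.55. The 9 calls became 0 when LT-HSC replicate 1, alone or with ST-HSC replicate 1, was left out, 3 when ST-HSC replicate 1 or 2 or MPP replicate 3 was, and 1 when ST-HSC replicate 3 was. They became 5 with no filter or with quantile normalization, 3 with median centring or the interquartile range as a covariate, 2 with array weights, and 18 with the replicate number as a block, where 4 were also called lower in MPP over ST-HSC and 1 higher in MPP over LT-HSC.

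By likeness of profile, the genes nearest to Uhrf1 over the 8 arrays were the condensin subunit Ncapd2 (root mean square difference 0.089 after centring each gene), Zgrf1 (0.091) and the condensin subunit Ncapg2 (0.104), where the median over 15313 genes was 0.614. Nearest to Hells were the spindle protein Tacc3 (0.112), Fbxo48 (0.121) and the kinetochore gene Spc25 (0.122). Nearest to Dnmt1 were Magi3 (0.059), Dut (0.062), which encodes a dUTP-hydrolysing enzyme of nucleotide synthesis, and Crip2 (0.069). Hells ranked 51st in likeness to Uhrf1 (0.198) and Dnmt1 291st (0.312), while Uhrf2, Dnmt3a, Dnmt3b and Dnmt3l ranked between 4599 and 11940. Tet1, Tet2 and Tet3 ranked between 6329 and 10519. Seen from Dnmt1 the maintenance genes were less near, with Hells 2407th (0.251), Tet3 4010th (0.289) and Uhrf1 5185th (0.312). This measure is not scaled for how widely a gene varies. Genes of unlike range therefore lie apart even where their arrays rise and fall together. The range of population means was 0.70 for Dnmt1, 1.45 for Uhrf1 and 0.28 for Tet3. Whether Dnmt1 follows Tet3 or Uhrf1 more closely in shape cannot be read from these ranks.

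The partners of maintenance methylation, 12 tested genes, had positive differences throughout in ST-HSC over LT-HSC (52% of all tested genes), with a median of 0.41. An unadjusted p under 0.05 was found for 5 of them (11.1% of genes), and 1 gene was called higher (0.848% of genes). That gene was Lig1, the ligase that joins replicated strands and carries a methylated peptide bound by UHRF1, at 7.74 and 8.31 in LT-HSC, 9.28, 9.10 and 9.15 in ST-HSC and 8.91, 8.56 and 8.53 in MPP (difference 1.15, SE 0.21, limma adjusted p = 0.029). ST-HSC arrays lay above all others and LT-HSC arrays below. The call was lost without LT-HSC replicate 1 (difference 0.87, limma adjusted p = 0.237), without it and ST-HSC replicate 1 (0.282), without each ST-HSC array (0.078, 0.087 and 0.121 for replicates 1, 2 and 3) and without MPP replicate 3 (0.0679), and with median centring (0.061), array weights (0.128), the 2 populations alone (0.082) or the interquartile range as a covariate (0.0586). Pcna, the replication clamp that also recruits DNMT1, differed by 0.42 (limma adjusted p = 0.423) and the deacetylase Hdac2 by 0.38 (limma adjusted p = 0.551). In MPP over LT-HSC 0 were called by limma, 4 with an unadjusted p under 0.05 (0.125% and 10.6% of genes). In MPP over ST-HSC these were 0 and 1 (0.193% and 6.89% of genes).

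Of 11 tested genes for deamination and for the excision of altered bases, 8 had ST-HSC over LT-HSC differences above 0 (52% of all tested genes). Of the 11, 2 were higher and 1 lower at an unadjusted p under 0.05 (11.1% of genes in either direction), and 1 was called higher (0.848% of genes). Neil3, a DNA glycosylase, read 5.72 and 5.56 in LT-HSC, 6.98, 7.27 and 7.38 in ST-HSC and 6.87, 6.38 and 6.38 in MPP. Its ST-HSC over LT-HSC difference was 1.57 (SE 0.21, limma adjusted p = 0.0062), and the 3 populations did not overlap. Without LT-HSC replicate 1 it was 1.65 and not called (limma adjusted p = 0.0637), nor was it without both that array and ST-HSC replicate 1 (1.76, limma adjusted p = 0.0771). With array weights its MPP over ST-HSC difference was -0.80 and passed (limma adjusted p = 0.00953), against -0.67 (limma adjusted p = 0.244) without them. Parp1, a sensor of DNA breaks, and Gadd45b, a stress-induced gene, were the brightest uncalled genes and differed by 0.50 and 0.48 (limma adjusted p = 0.476 and 0.904). Gadd45b varied widely, at 6.52 and 8.04 in LT-HSC, 5.71, 9.21 and 8.37 in ST-HSC and 6.32, 10.13 and 8.59 in MPP. It was lowest in replicate 1 of each population. The list's median was 0.31, and in MPP against LT-HSC and against ST-HSC 0 were called by limma, with 3 and 1 at an unadjusted p under 0.05 (10.6% and 6.89% of genes).

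The 9 tested genes of methyl donor supply all had positive ST-HSC over LT-HSC and MPP over LT-HSC differences, with medians of 0.46 and 0.39. Of all tested genes 52% and 57.2% were above 0. In each comparison 0 of the 9 were called by limma. An unadjusted p under 0.05 was found for 5, 2 and 1 in ST-HSC over LT-HSC, MPP over LT-HSC and MPP over ST-HSC (11.1%, 10.6% and 6.89% of genes). Relative to each gene's mean over all arrays, the list averaged -0.50 and -0.17 in LT-HSC replicates 1 and 3. Mat2b (7.651) and Ahcyl1 (9.06) in LT-HSC replicate 3 lay above their means in ST-HSC (7.646 and 8.95) and MPP (7.588 and 8.99). Shmt2, a mitochondrial enzyme of one-carbon metabolism, differed by 0.70 between ST-HSC and LT-HSC (limma adjusted p = 0.234) and Ahcyl1 by 0.16 (limma adjusted p = 0.814). A list of enzymes that make or use 2-oxoglutarate, the cosubstrate of TET proteins, also held Sdha, Sdhb and Fh1, which act on succinate and fumarate. Of its 10 tested genes 0 were called by limma in each comparison. An unadjusted p under 0.05 was found for 3, 2 and 1 in the same order (11.1%, 10.6% and 6.89% of genes). Idh2, which makes 2-oxoglutarate in mitochondria, differed by 0.59 (ST-HSC over LT-HSC) and 0.76 (MPP over LT-HSC; limma adjusted p = 0.319 and 0.248), and Idh3g by 0.29 and 0.26 (limma adjusted p = 0.564 and 0.588).

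Among 6 tested TET partners and CXXC proteins 0 were called by limma, and 0 had an unadjusted p under 0.05, in each of the 3 comparisons. Ogt, the enzyme that attaches N-acetylglucosamine to proteins and binds TET proteins, differed by -0.44 in ST-HSC over LT-HSC and 0.35 in MPP over ST-HSC (limma adjusted p = 0.486 and 0.867), and Cxxc5 by -0.07 and 0.21 (limma adjusted p = 0.933 and 0.999). Among 8 methyl-CpG readers 0 were called by limma. An unadjusted p under 0.05 was found for 2, 3 and 1 in ST-HSC over LT-HSC, MPP over LT-HSC and MPP over ST-HSC (11.1%, 10.6% and 6.89% of genes). Mbd2 stood at 0.16 and Mbd6 at 0.01 in ST-HSC over LT-HSC (limma adjusted p = 0.801 and 0.993). Germline genes known to be silenced by promoter methylation had 4 of 9 matched genes above the filter, Dnmt3l among them, and 0 were called by limma. In the same order 0, 0 and 1 had an unadjusted p under 0.05, against the same shares of all genes. Ddx4 and Sohlh2 differed by -0.37 and -0.27 in ST-HSC over LT-HSC (limma adjusted p = 0.529 and 0.677).

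**Figure D5:**
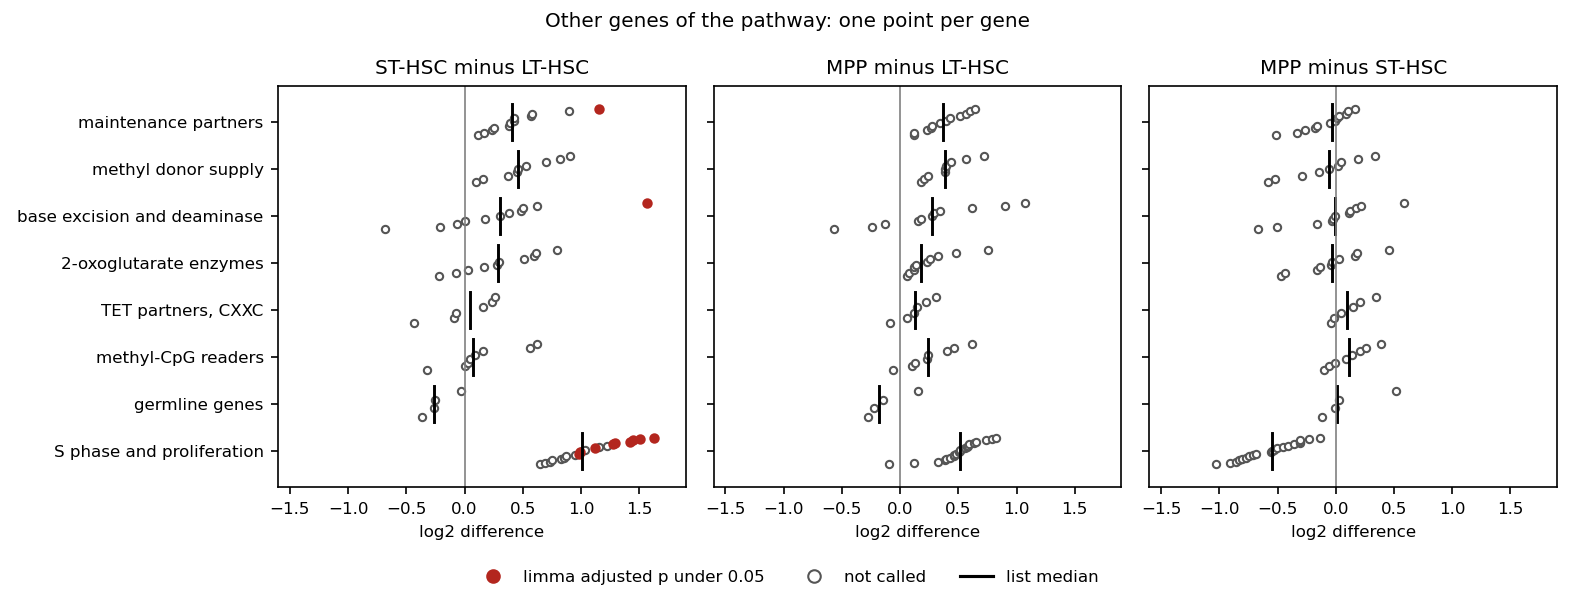
Log2 difference (x axis) of each tested gene in 8 lists (y axis) for the 3 comparisons, 1 point per gene with black bars at list medians; filled points passed a limma adjusted p of 0.05. The filled points are Lig1, Neil3 and 9 S phase genes, all in ST-HSC over LT-HSC.

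The sort gate and the arrays were checked once. Slamf1, which encodes CD150, read 7.77 and 7.78 in LT-HSC, 7.25 to 7.46 in ST-HSC and 4.77 to 5.46 in MPP, and Cd34 was 8.50 and 10.20 in the 2 LT-HSC arrays, so LT-HSC replicate 3 lay just above the ST-HSC range of 9.55 to 10.15 although its gate was CD34-. Cd48 read 5.92 and 6.63 in LT-HSC, 7.49, 6.51 and 6.57 in ST-HSC and 7.84, 6.65 and 6.96 in MPP, so ST-HSC replicate 1, sorted as CD48-, lay above 2 of the CD48+ MPP arrays. Kit read 9.84 to 10.45 over all arrays, while Ly6a (Sca1) was not analysed here. LT-HSC replicate 1 and ST-HSC replicate 1 had the lowest median correlations with the other arrays (0.956 and 0.968) and interquartile ranges of 2.49 and 2.73, against 2.82 to 3.06 elsewhere. Both carried the low values of Tet2, Uhrf2 and Dnmt3b. The 16 granulocyte and monocyte markers averaged 0.81, 1.09 and 0.62 above their overall mean in replicate 1 of the 3 populations, in the order used above, and -0.90 to -0.26 in the other arrays, S100a8 among them at 11.09, 11.29 and 10.60 against 6.61 to 9.86. In MPP replicate 1, where those markers were also high, Tet2, Uhrf2 and Dnmt3b read 6.44, 8.52 and 7.745. The markers' part in the members' values was not tested. Of 5 megakaryocyte markers 1 was called higher in ST-HSC than in LT-HSC (Itga2b, 1.18, limma adjusted p = 0.00814), where 0.848% of genes were. In MPP 1 was called lower against LT-HSC and 2 against ST-HSC, where 0.125% and 0.193% of genes were called in either direction. Between ST-HSC and LT-HSC the arrays did not overlap for 3 markers higher in ST-HSC and for 1, Vwf, lower in ST-HSC. The megakaryocyte list averaged -0.18 and 0.18 in LT-HSC, 0.35 to 1.07 in ST-HSC and -0.85 to -0.32 in MPP. Erythroid markers ranged from -0.20 to 0.23, -0.40 to 1.03 and -0.72 to 0.48, and stroma and endothelium from -0.35 to 0.18, -0.34 to 1.30 and -0.38 to 0.20. B cell markers ranged from -0.24 to 0.26 and T and NK cell markers from -0.15 to 0.16. Replicate 1 was the highest array of each population in the erythroid, stroma and B cell lists, but not in the T and NK list. In ST-HSC Col1a2 read 10.85 in replicate 1 and 4.74 and 5.18 in the others, whereas Pecam1 and Pdgfrb were lowest in replicate 1. Of these 4 lists and the granulocyte and monocyte list 0 genes were called by limma. At an unadjusted p under 0.05 there were 0 to 3 a list and comparison (11.1%, 10.6% and 6.89% of genes in ST-HSC over LT-HSC, MPP over LT-HSC and MPP over ST-HSC).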

How the data were processed

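Expression was measured on 8 single-colour microarrays. Per the submitters' processing notes the authors used RMA, and the deposited table holds log2 values for 33649 probe sets; that scale was inferred from their range, and the version and probe annotation are not given in the sources used here. RNA was amplified before labelling, per the labels, which can add spread, and RMA values compress differences of dim genes. Precision is limited by how few arrays there were. The deposited arrays did not share 1 distribution, with medians of 4.95 to 5.22 and interquartile ranges of 2.49 to 3.06, and the main fit used them as deposited. With quantile normalization ST-HSC over LT-HSC was 1.31 for Uhrf1, 1.04 for Hells and 0.56 for Dnmt1 (limma adjusted p = 0.0131, 0.0292 and 0.196).

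Probe sets with exactly 1 gene symbol in the platform annotation were kept (23521; 1814 had several and 8314 were unnamed here), with the highest mean over all arrays where a gene had several, and genes with a mean of at least 3.88, the 25th percentile over all probe sets, were tested. The 8 arrays were fitted jointly in limma 3.58.1 under R 4.3.3, each population having its own mean and all sharing 1 spread, with 5 residual and 5.93 prior degrees of freedom. Benjamini-Hochberg adjustment covered all 17576 genes, and an adjusted p under 0.05 was a call. The method was tested on simulated data.

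The members and lists were chosen with earlier results of these data known. Of 178 list entries 153 matched a gene. Named genes were the 10 members, the called genes of each list (up to 6 a comparison) and the 2 most highly expressed uncalled ones, and the 3 nearest profiles of the 3 members with the widest range of means. Alternatives covered filters, scaling, probe sets, array weights, an intensity trend, left-out arrays, the populations in the fit, the replicate block and, added after seeing the data, each array's interquartile range as a covariate.

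Replicate numbers are shared between populations. Deviations from the group means correlated at 0.15, 0.23 and 0.21 between ST-HSC and MPP arrays of numbers 1, 2 and 3, and each other pair of these arrays was lower. The fit reported had no block, and the replicate block was run as an alternative. The labels state no pairing, and for LT-HSC it could not be checked in this way.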

Additional observations from a re-analysis of the deposited data

How the results depend on the processing

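The 2 members called in ST-HSC minus LT-HSC became 1 with median centring, array weights, only the 2 populations compared, or the interquartile range as a covariate (chosen after seeing the data), and 0 without the apart arrays (LT-HSC replicate 1 and ST-HSC replicate 1); leaving out single arrays gave 0 to 2. In the F test 2 became 1 with no filter or an intensity trend, 0 with median centring or without the apart arrays, and 0 to 2 without single arrays. In MPP minus ST-HSC 0 became 1 with array weights, and was 0 in every fit without a single array. In MPP minus LT-HSC it was 0 in every alternative. Of 577 member differences under 20 alternatives 528 kept direction and side of the threshold, 13 lost the call, 1 gained it and 35 changed sign. The cause of these changes was not tested. Filters, the mean of probe sets, the intensity trend and a fit of only the 2 populations compared could not change a member's difference. Nor could leaving out an array of the population not compared or, in MPP minus ST-HSC, the replicate block. Of the 30 member comparisons only 2 were called in the main fit, so few could lose a call. The count of 528 is therefore no measure of stability.

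The changes of sign concerned uncalled differences. For ST-HSC minus LT-HSC, Uhrf2 was -0.12 with quantile normalization, -0.025 without both apart arrays and -0.16 with the interquartile range, and ran from -0.18 (without LT-HSC replicate 1) to 0.31 (without LT-HSC replicate 3) without single arrays. Dnmt3a was -0.052, -0.18 and -0.074 under the same alternatives, and -0.17 to 0.24 without these arrays. Tet2 was -0.021 with the replicate block, -0.34 without both apart arrays and -0.43 with the interquartile range, and -0.55 to 0.59 without these arrays. Tet3 was -0.041 with quantile normalization and -0.0016 with array weights, and -0.0072 (without ST-HSC replicate 1) to 0.19 (without ST-HSC replicate 2). Dnmt3b was -0.046 with the interquartile range. For MPP minus LT-HSC, Uhrf2 was -0.0028 with quantile normalization, -0.041 without both apart arrays and -0.044 with the interquartile range. Leaving out LT-HSC replicate 1 or 3 gave -0.041 and 0.45 for Uhrf2, -0.16 and 0.98 for Tet2, and 0.013 and -0.46 for Dnmt3l. Without both apart arrays Tet2 was -0.16 and Dnmt3l 0.013, and Tet2 was -0.091 with the interquartile range. For MPP minus ST-HSC, Uhrf2 was -0.016 and Dnmt3b -0.034 both without ST-HSC replicate 1 and without both apart arrays, and their ranges without single arrays ended at 0.25 and 0.42. Dnmt3l ran from -0.041 to 0.12 without single arrays.

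With the replicate block over all arrays, ST-HSC minus LT-HSC was 1.55 for Uhrf1, 1.19 for Hells and 0.77 for Dnmt1 (limma adjusted p = 0.00131, 0.00969 and 0.0572). The block left the members called at 2, 0, 0 and 2 in ST-HSC minus LT-HSC, MPP minus LT-HSC, MPP minus ST-HSC and the F test, and raised the genes called from 164, 22, 34 and 159 to 473, 157, 267 and 566. With the block in MPP and ST-HSC alone 0 members and 289 genes were called. Array weights gave 61, 9, 525 and 386 genes and median centring 104, 5, 1 and 65, with the median of all genes at 0.13 and 0.18 for the differences from LT-HSC. Without both apart arrays 0 genes were called in ST-HSC minus LT-HSC, 78 in MPP minus ST-HSC and 88 in the F test. The interquartile range gave 47, 197 and 276 in MPP minus LT-HSC, MPP minus ST-HSC and the F test, the 2 populations alone 100 in ST-HSC minus LT-HSC and 71 in MPP minus ST-HSC, and quantile normalization 37 in MPP minus LT-HSC. Leaving out single arrays gave 17 to 825, 6 to 615, 1 to 71 and 29 to 520. LT-HSC had 2 arrays, so without either the remaining one is assumed to vary like the other populations.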
